A study of Mus musculus with 10 samples.

Results

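Klf2, Klf3, Foxo1, Foxp1, Bach2, Ets1, Satb1 and Bcl6 encode transcription factors tied to the identity and resting state of follicular B cells. They were taken by symbol from a table of mRNA molecules per cell, in which they make up 8 of 9690 genes, and all 8 were found and passed the floor on low values. The table covers B cells from the spleen of female C57BL/6J mice, without stimulation, sorted as marginal zone B cells (MZB; B220+, CD21 high, CD1d+ and CD23-) or as follicular B cells (FoB; B220+, CD23+, CD21 intermediate and CD1d-). All sorted cells lacked Thy1.1, F4/80, CD11b, CD93 and GL7. Cells were labelled wild type or knockout for LSD1, a histone demethylase encoded by Kdm1a, with 2 knockout MZB, 3 wild-type MZB, 3 knockout FoB and 2 wild-type FoB libraries. RNA of 50000 cells was used per library. The sources used here give neither the Cre driver, the deleted exons and the age of the mice nor the number of animals behind a library, so a p-value reflects how these libraries differ among themselves, a spread that may be technical. In bulk libraries, fewer cells with a transcript and less of it per cell cannot be told apart.

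Follicular B cells recirculate through blood and lymphoid follicles in a resting state, while marginal zone B cells reside beside the splenic marginal sinus and respond quickly to blood-borne antigen. KLF2 is a zinc finger factor of lymphocyte quiescence and trafficking, and KLF3 is a related repressor of the same family. FOXO1 is a forkhead factor that phosphatidylinositol 3-kinase (PI3K) and AKT signalling excludes from the nucleus, and FOXP1 is a forkhead factor of B cell development. BACH2 represses plasma cell differentiation, as ETS1 does by restraining BLIMP1, and BCL6 is the repressor required for germinal centres. SATB1 folds chromatin into loops at lymphoid genes.

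The recovered whole reads numbered 4161051 to 6711847 per library, and the 8 genes held from 162 reads (Klf2, wild-type MZB library 3) to 9624 reads (Ets1, wild-type FoB library 1). The summed mRNA per cell ran from 43561.9 to 56437.7 in FoB and from 74815.0 to 121070.6 in MZB libraries. For this reason each value per cell is followed by a rescaled value, which compares a gene with the bulk of genes in its library. Kdm1a, the gene of the labelled knockout, was at 5.37 and 5.94 in the knockout MZB libraries, 6.37, 8.36 and 7.90 in wild-type MZB, 2.04, 2.36 and 1.93 in knockout FoB, and 5.58 and 4.34 in wild-type FoB. It fell in FoB on both scales (log2 −1.12 ± 0.19 per cell, SE, limma adjusted p = 4.31e-05) and in MZB after rescaling (log2 −0.69 ± 0.06, SE, limma adjusted p = 0.000463), while the per-cell change in MZB did not pass (log2 −0.39 ± 0.19, SE, limma adjusted p = 0.118). In the wild type, the markers of the sort stood as labelled. Cr2, which encodes CD21, had means of 271.2 ± 24.2 (SD, n = 3) and 38.8 ± 8.83 (SD, n = 2) in MZB and FoB of the wild type, and Fcer2a, which encodes CD23, of 13.3 ± 3.84 and 93.7 ± 18.9. In knockout MZB, Fcer2a rose against wild-type MZB and Cr2 fell after rescaling, as given with the marker lists below. The B cell markers Cd79a, Cd79b, Ms4a1, Ebf1 and Pax5 were in the table.

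The upstream windows of Klf2, Bach2 and Bcl6 are shown because these 3 genes were the ones that rose in knockout MZB on both scales. Each window was taken as the 250 bases before a RefSeq transcription start on GRCm38.p6 (the assembly of mm10), written 5′ to 3′ on the strand of the gene. The last 29 bases of the Klf2 window are left out because the GENCODE annotation places them in the first exon of Klf2. The Klf2 window lies at chr8:72318812-72319032 (plus strand), outside any GENCODE exon. The Bach2 window lies at chr4:32417185-32417434 (plus strand), inside the span of the gene and in no GENCODE exon, so it belongs to an internal start. The Bcl6 window lies at chr16:23988867-23989102 (minus strand), outside any GENCODE exon, and its last 14 bases are left out because they fall in the longer RefSeq span of Bcl6. A second Bcl6 window, at chr16:23981284-23981533 inside the gene, is not printed. Capitals mark a match to a motif of MEF2 in Klf2, of ETS factors in Bach2 and of E-box factors in Bcl6.
Klf2: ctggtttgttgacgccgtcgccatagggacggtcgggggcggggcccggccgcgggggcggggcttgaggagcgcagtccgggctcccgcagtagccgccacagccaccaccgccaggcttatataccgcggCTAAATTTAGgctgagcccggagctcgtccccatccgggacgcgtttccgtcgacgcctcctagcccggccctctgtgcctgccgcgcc
Bach2: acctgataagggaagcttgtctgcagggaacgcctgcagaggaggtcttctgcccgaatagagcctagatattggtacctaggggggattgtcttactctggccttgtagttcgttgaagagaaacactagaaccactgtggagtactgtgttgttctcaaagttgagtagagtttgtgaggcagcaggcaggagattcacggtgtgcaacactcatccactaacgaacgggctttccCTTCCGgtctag
Bcl6: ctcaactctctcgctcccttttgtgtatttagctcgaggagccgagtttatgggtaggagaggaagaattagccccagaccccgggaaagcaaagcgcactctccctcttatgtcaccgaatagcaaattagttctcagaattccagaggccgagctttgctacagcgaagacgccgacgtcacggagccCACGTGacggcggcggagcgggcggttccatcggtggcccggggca

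Motifs were searched on both strands, and no 2 matches in the printed windows overlap. RefSeq start windows were found for 7 of the 8 genes, 14 windows in all. The FOXO motif GTAAACA, present in 3.17% of all 32851 windows of that length, and the BACH2 and AP-1 motif TGACTCA, present in 4.46%, occurred in none of the 14 windows. The KLF motif CACCC, present in 52% of all windows, occurred in 9 of the 14. These were the window of Klf3, that of Klf2 (in the 29 bases left out above), 2 of 3 windows of Foxp1, 4 of 5 of Satb1 and the second of Bcl6. The ETS motif CGGAAG, present in 13.6% of all windows, occurred in the Bach2 window 12 to 7 bases before the start, on the minus strand. The last motifs were searched after the sequences had been seen. A loose pattern for MEF2 factors, CTA and TAG with any 4 bases between them, occurred in the Klf2 window 118 to 109 bases before the start. It occurred in 3.2% of all windows, which is not the share with a full MEF2 site, since any 4 bases were allowed. The E-box CACGTG occurred in the Bcl6 window 60 to 55 bases before the start and in 6.02% of all windows. A match is a description of the letters, and no binding was measured.

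In wild-type FoB, Ets1 was the most abundant of the 8 genes on this scale, in which values are per transcript length for most genes. It stood at 38.1 ± 7.17 mRNA per cell (SD, n = 2), rank 160 of 9690 genes, followed by Klf2 at 26.7 ± 4.33 and rank 250. Foxo1 (11.4 ± 2.50), Foxp1 (10.5 ± 2.10), Bcl6 (8.89 ± 2.43), Bach2 (7.92 ± 1.72), Satb1 (5.46 ± 0.954) and Klf3 (4.72 ± 0.618) followed. Of the neighbours in this order, Klf2 and Foxo1 alone differed by more than the sum of their SDs. Each of the 8 genes thus stood above the median gene of wild-type FoB, which was at 2.22 mRNA per cell. In wild-type MZB the order was Ets1 (40.9 ± 6.51), Foxp1 (15.2 ± 2.23), Foxo1 (13.2 ± 2.15), Klf2 (4.43 ± 0.902), Klf3 (4.03 ± 0.746), Satb1 (2.99 ± 0.546), Bcl6 (2.75 ± 0.257) and Bach2 (2.06 ± 0.481; SD, n = 3 for each). There, Ets1 and Foxp1, and Foxo1 and Klf2, differed by more than the sum of their SDs, and the other neighbours did not. In knockout FoB the order was Ets1 (36.3 ± 2.40), Klf2 (22.7 ± 2.98), Foxo1 (10.8 ± 0.974), Foxp1 (10.04 ± 0.302), Bach2 (7.54 ± 0.771), Bcl6 (7.35 ± 0.980), Satb1 (5.24 ± 0.180) and Klf3 (4.16 ± 0.1002; SD, n = 3 for each), where Foxo1 and Foxp1, and Bach2 and Bcl6, lay within the sum of their SDs. In knockout MZB it was Ets1 (53.0 ± 6.66), Foxo1 (17.7 ± 1.005), Foxp1 (17.4 ± 1.63), Klf2 (9.01 ± 1.96), Klf3 (5.44 ± 0.716), Bcl6 (5.43 ± 0.441), Satb1 (4.75 ± 0.731) and Bach2 (4.13 ± 0.611; SD, n = 2 for each), where Foxo1 and Foxp1, and each neighbouring pair from Klf3 to Bach2, lay within it. Klf2 thus held the second place among the 8 in FoB and the fourth in MZB of either genotype. Klf2 moved from rank 250 in wild-type FoB to rank 4631 in wild-type MZB, and Bach2 from rank 1254 to rank 7314, while Ets1 stayed among the highest 3% of genes, at rank 288. The worth of 1 read times exon length, relative to the median gene, was 1.561 for Foxo1, 1.693 for Satb1 and 0.729 for Foxp1. The places of these genes in the orders above are thus less certain per length.

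**Figure D1:**
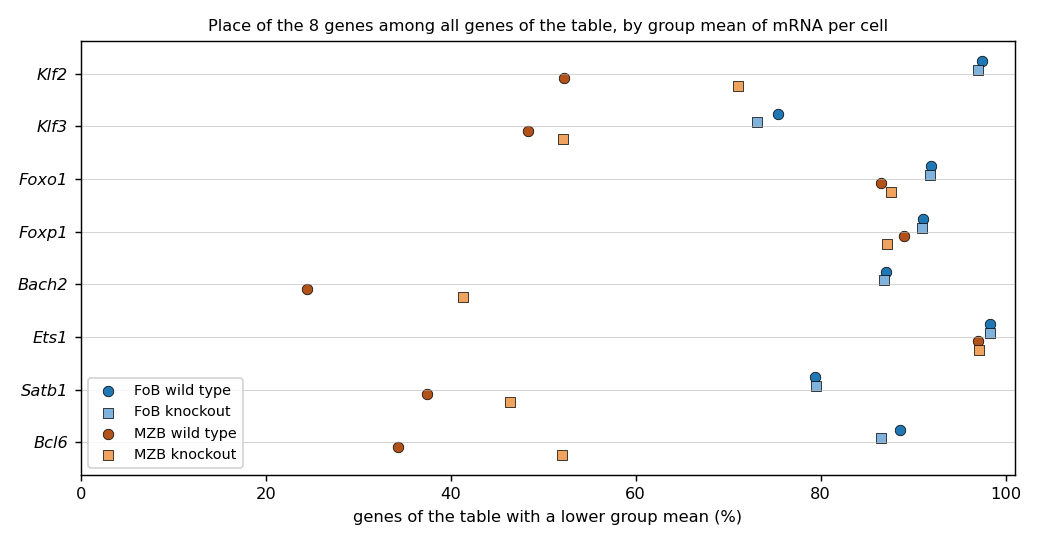
Share of the 9690 genes of the table (x axis, percent) whose group mean of mRNA per cell is lower than that of each of the 8 genes (y axis), in the 4 groups. Klf2 falls from 97.4% in wild-type FoB to 52.2% in wild-type MZB and stands at 71.1% in knockout MZB, while Ets1 stays between 97.0% and 98.3%.

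Wild-type MZB were compared with wild-type FoB to place the 8 genes between the cell types. Klf2, Bach2, Bcl6 and Satb1 stood lower in MZB per cell, although the median gene stood 0.78 higher on the log2 scale. Thus 4 of 8 genes were called lower, against 1.67% of all genes (limma on log2(value + 0.3), Benjamini-Hochberg adjusted p under 0.05 over all genes). Foxp1 was called higher, as were 84.2% of all genes. After rescaling, 8 of 8 were called lower, against 24.9% of all genes, with a median log2 difference of −1.34 against 0.00 for all genes. No wild-type MZB library overlapped a wild-type FoB library for any of the 8 genes on the rescaled values, a separation downward that 34.8% of all genes showed. Limma voom on the recovered reads also called 8 of 8 lower, against 26.3% of all genes.

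Klf2 showed the largest difference of the 8. It stood at 29.72 and 23.60 mRNA per cell in the wild-type FoB libraries, at 22.82, 25.56 and 19.60 in knockout FoB, at 3.48, 5.28 and 4.52 in wild-type MZB, and at 7.63 and 10.39 in knockout MZB. The FoB libraries lay far above the MZB libraries, and the knockout MZB libraries lay above the wild-type ones without reaching any FoB library. The difference between wild-type MZB and FoB was −2.52 ± 0.20 on the log2 scale per cell (SE, limma adjusted p = 8.38e-20) and −3.37 ± 0.08 after rescaling (SE, limma adjusted p = 5.33e-10), where wild-type MZB held 8.95% of the wild-type FoB level. Its relative Klf3 followed another course. Klf3 stood at 5.15 and 4.28 in wild-type FoB, 4.06, 4.17 and 4.26 in knockout FoB, 3.25, 4.74 and 4.11 in wild-type MZB, and 4.93 and 5.94 in knockout MZB, so that the wild-type groups overlapped, while both knockout MZB libraries lay above the other MZB libraries and all 3 knockout FoB libraries below the wild-type FoB ones. Per cell, its difference of −0.22 ± 0.19 did not pass (SE, limma adjusted p = 0.264), with a 95% interval from −0.60 to 0.16, and after rescaling it was −1.05 ± 0.09 (SE, limma adjusted p = 4.79e-06).

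The forkhead genes Foxo1 and Foxp1 were high in both cell types. Foxo1 stood at 13.18 and 9.64 mRNA per cell in wild-type FoB, 11.01, 11.61 and 9.71 in knockout FoB, 11.25, 15.51 and 12.79 in wild-type MZB, and 16.95 and 18.37 in knockout MZB. The knockout MZB libraries were the highest of the 10, and the wild-type groups overlapped. Foxp1 stood at 11.93 and 8.96 in wild-type FoB, 10.35, 10.03 and 9.75 in knockout FoB, 13.59, 17.77 and 14.34 in wild-type MZB, and 16.23 and 18.53 in knockout MZB. For Foxp1, every MZB library lay above every FoB library per cell, while the knockout and wild-type MZB libraries overlapped. The direction of both genes between the wild-type cell types depended on the scale. Foxo1 differed by 0.21 ± 0.20 per cell (SE, limma adjusted p = 0.315) and by −0.65 ± 0.07 after rescaling (SE, limma adjusted p = 2.25e-05). Foxp1 differed by 0.54 ± 0.20 per cell (SE, limma adjusted p = 0.0103) and by −0.33 ± 0.09 after rescaling (SE, limma adjusted p = 0.00955). Leaving out wild-type MZB library 2 or wild-type FoB library 2 ended the per-cell call of Foxp1 (limma adjusted p = 0.0617 and 0.203), and the rescaled call without wild-type FoB library 1 (limma adjusted p = 0.0808).

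For the repressor genes Bach2 and Bcl6, as for Klf2, every MZB library lay below every FoB library per cell. Bach2 stood at 9.14 and 6.70 mRNA per cell in wild-type FoB, 8.42, 7.0 and 7.19 in knockout FoB, 1.97, 2.59 and 1.64 in wild-type MZB, and 3.70 and 4.56 in knockout MZB. Bcl6 stood at 10.61 and 7.18 in wild-type FoB, 6.75, 8.48 and 6.82 in knockout FoB, 2.60, 3.05 and 2.61 in wild-type MZB, and 5.12 and 5.75 in knockout MZB. For both genes, the knockout MZB libraries lay between the wild-type MZB and the FoB libraries, and none of the 3 sets overlapped another. Klf2 showed this order too, and the share of all genes with it was not computed. On rescaled values, the wild-type cell types separated downward for all 8 genes and for 34.8% of all genes. Bach2 differed between the wild-type cell types by −1.80 ± 0.19 per cell (SE, limma adjusted p = 1.33e-13), and after rescaling by −2.61 ± 0.15 (SE, limma adjusted p = 1.74e-07). For Bcl6 these values were −1.57 ± 0.19 per cell (SE, limma adjusted p = 2.23e-11) and −2.39 ± 0.09 after rescaling (SE, limma adjusted p = 1.04e-08).

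Per cell, Ets1 and Satb1 behaved differently from each other. Ets1 stood at 43.19 and 33.05 mRNA per cell in wild-type FoB, 37.14, 38.20 and 33.62 in knockout FoB, 34.35, 47.36 and 40.92 in wild-type MZB, and 48.34 and 57.76 in knockout MZB. The wild-type groups overlapped, and both knockout MZB libraries were above all others. Ets1 differed between the wild-type cell types by 0.10 ± 0.21 per cell (SE, limma adjusted p = 0.649) and by −0.78 ± 0.07 after rescaling (SE, limma adjusted p = 3.74e-06). Satb1 stood at 6.13 and 4.78 in wild-type FoB, 5.11, 5.45 and 5.17 in knockout FoB, 2.62, 3.62 and 2.74 in wild-type MZB, and 4.23 and 5.26 in knockout MZB. The wild-type MZB libraries were the lowest of the 10, and knockout MZB library 2 lay within the range of the FoB libraries. Between the wild-type cell types Satb1 differed by −0.81 ± 0.19 per cell (SE, limma adjusted p = 0.000104) and by −1.63 ± 0.09 after rescaling (SE, limma adjusted p = 1.74e-07).

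**Figure D2:**
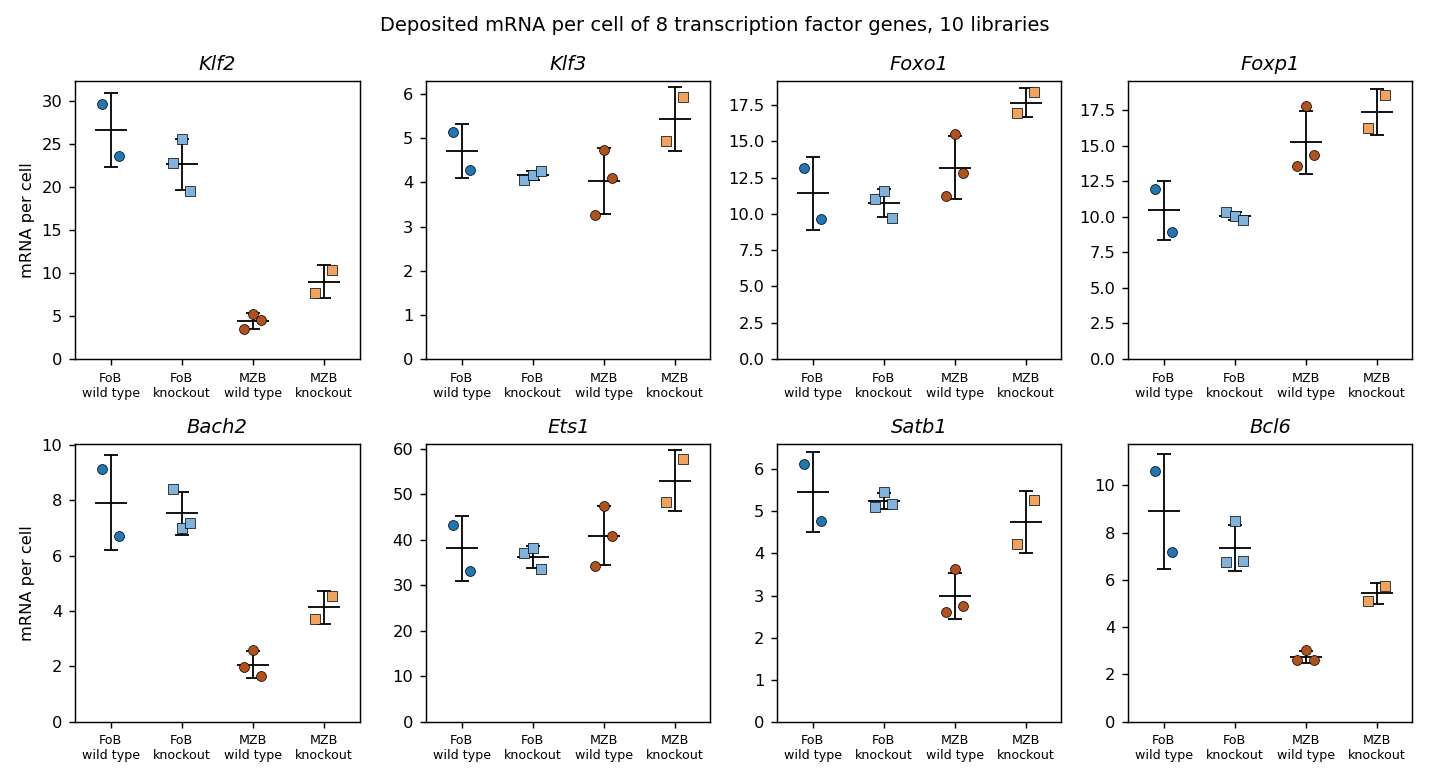
Deposited mRNA per cell (y axis, from 0) of the 8 genes in the 4 groups, where each point is a library and bars give the mean and SD. For Klf2, Bach2 and Bcl6 the knockout MZB libraries lie above the wild-type MZB and below the FoB libraries, as for Klf2 at 7.63 and 10.39 against 3.48 to 5.28 and 19.60 to 29.72.

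The next comparison set the MZB libraries labelled knockout against wild-type MZB, between which Kdm1a fell after rescaling and did not pass per cell. Klf2, Bach2, Bcl6 and Satb1, the same 4 genes that stood lower in wild-type MZB per cell, rose in knockout MZB. The comparisons share the wild-type MZB libraries, so their values are given side by side and not as support for each other. Per cell, 4 of 8 genes were called higher and 0 lower, against 13.3% and 0.702% of all genes. The median log2 change of the 8 was 0.52, against 0.32 for all genes. After rescaling, 3 of 8 were called higher and 0 lower, against 3.36% and 1.90% of all genes, with medians of 0.20 and 0.02. Limma voom on the recovered reads called 4 of 8 higher, against 5.80% of all genes.

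Klf2 rose from 4.43 ± 0.902 mRNA per cell (SD, n = 3) to 9.01 ± 1.96 (SD, n = 2), a log2 change of 0.98 ± 0.20 (SE, limma adjusted p = 0.000231), and after rescaling of 0.65 ± 0.08 (SE, limma adjusted p = 0.00247). In knockout MZB it thus held 33.8% of the wild-type FoB level, against 16.6% in wild-type MZB, or 14.6% against 8.95% on rescaled values. Bach2 rose from 2.06 ± 0.481 to 4.13 ± 0.611, a log2 change of 0.92 ± 0.19 (SE, limma adjusted p = 0.000345) and 0.59 ± 0.15 rescaled (SE, limma adjusted p = 0.0441). Bcl6 rose from 2.75 ± 0.257 to 5.43 ± 0.441, a log2 change of 0.91 ± 0.19 (SE, limma adjusted p = 0.000361) and 0.58 ± 0.09 rescaled (SE, limma adjusted p = 0.0057). The chromatin organizer Satb1 rose per cell from 2.99 ± 0.546 to 4.75 ± 0.731, a log2 change of 0.62 ± 0.19 (SE, limma adjusted p = 0.0204), while its rescaled change of 0.30 ± 0.09 did not pass (SE, limma adjusted p = 0.0841).

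The other 4 genes did not pass on either scale. Per cell, Klf3 changed by 0.41 ± 0.19 (SE), Foxo1 by 0.42 ± 0.20, Ets1 by 0.38 ± 0.21 and Foxp1 by 0.19 ± 0.20 on the log2 scale, which lies near the median of all genes. After rescaling these values were 0.10 ± 0.09, 0.10 ± 0.07, 0.05 ± 0.07 and −0.13 ± 0.09, with 95% intervals that together run from −0.32 (Foxp1) to 0.30 (Klf3). Both knockout libraries lay above all 3 wild-type MZB libraries for 7 of 8 genes per cell, against 56.9% of all genes. On the rescaled values this held for 4 of 8, against 24.2%, and Foxp1 lay below in both, as did 21.4% of all genes.

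The calls leaned on knockout MZB library 2, which had the largest summed mRNA per cell of the 10. Without it, Bcl6 alone was called per cell, while Klf2 changed by 0.76 (limma adjusted p = 0.117), Bach2 by 0.78 (limma adjusted p = 0.0713) and Satb1 by 0.47 (limma adjusted p = 0.486). Leaving out wild-type MZB library 1 or 3 also ended the call of Satb1 (limma adjusted p = 0.0982 and 0.0843), and without wild-type MZB library 2 Klf3 and Foxo1 were called as well (limma adjusted p = 0.0416 and 0.0436). After rescaling, Klf2 kept its call without any of the 10 libraries (log2 change 0.53 to 0.77). Bcl6 lost it without knockout MZB library 1 (limma adjusted p = 0.0566) or 2 (limma adjusted p = 0.0704). Bach2 lost it without any MZB library or either wild-type FoB library (limma adjusted p 0.0586 to 0.296).

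**Figure D3:**
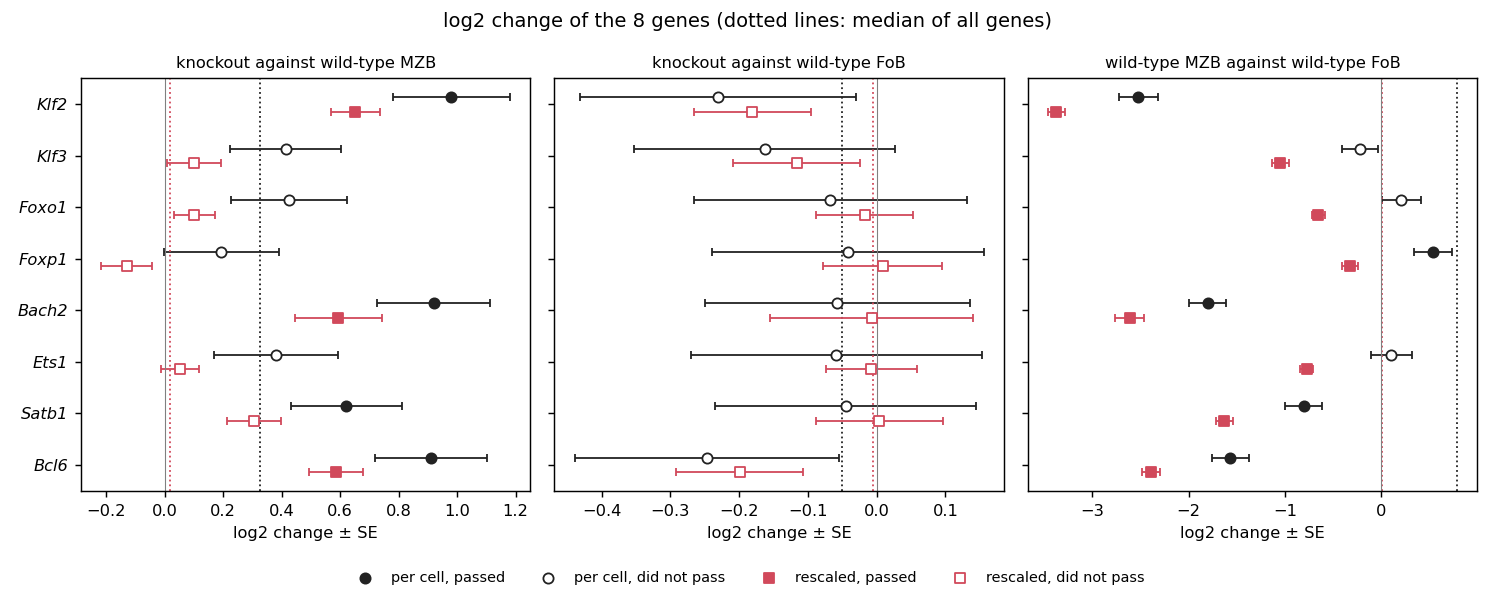
log2 change (x axis) of the 8 genes in 3 comparisons, with bars for the SE, per cell (circles) and rescaled (squares). Filled symbols passed and dotted lines give the median of all genes. In knockout MZB, Klf2 (0.98 and 0.65), Bach2 (0.92 and 0.59) and Bcl6 (0.91 and 0.58) are filled on both scales, and no symbol is filled in knockout FoB.

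In knockout against wild-type FoB, none of the 8 genes passed. Limma called 0 of 8 per cell and after rescaling, with 0 at an unadjusted p under 0.05 on each scale, and limma voom called 0 of 8 with 2 at an unadjusted p under 0.05. Over all genes, 0.712% were called per cell, 0.588% after rescaling and 1.08% by limma voom. Per cell the log2 changes ran from −0.25 ± 0.19 for Bcl6 (SE, 95% interval −0.63 to 0.13) and −0.23 ± 0.20 for Klf2 (−0.63 to 0.17) to −0.04 ± 0.20 for Foxp1 (−0.43 to 0.35). After rescaling they ran from −0.20 ± 0.09 for Bcl6 (−0.40 to 0.01) and −0.18 ± 0.08 for Klf2 (−0.37 to 0.01) to 0.01 ± 0.09 for Foxp1 (−0.18 to 0.20). Klf3 alone had its per-cell knockout libraries all below both wild-type ones, as did 6.80% of all genes. Bcl6 and Klf2 were the genes whose rescaled knockout libraries all lay below both wild-type ones, a separation that 16.3% of all genes showed. These intervals leave room for falls of the size given by their lower ends, so a like level in both genotypes is not shown.

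The effects of the knockout in MZB and in FoB come from separate libraries, and their difference was tested as an interaction in the same fit. Per-cell levels of Klf2, Bcl6 and Bach2 rose more in MZB than in FoB in this fit. Per cell 3 of 8 genes were called, all with the larger effect in MZB, against 2.02% of all genes in that direction. The difference was 1.21 ± 0.28 for Klf2 (SE, limma adjusted p = 0.00703), 1.16 ± 0.27 for Bcl6 (SE, limma adjusted p = 0.00703) and 0.98 ± 0.27 for Bach2 (SE, limma adjusted p = 0.0326). After rescaling it was 0.83 ± 0.12 for Klf2 (SE, limma adjusted p = 0.0219) and 0.78 ± 0.13 for Bcl6 (SE, limma adjusted p = 0.0457), so that 2 of 8 genes were called against 0.165% of all genes, and that of Bach2 did not pass (0.60 ± 0.21, SE, limma adjusted p = 0.137). Limma voom called the same 3 genes as the per-cell fit, against 1.97% of all genes. Satb1 (0.67 ± 0.27 per cell, SE, limma adjusted p = 0.127), Klf3, Foxo1, Ets1 and Foxp1 did not pass on either scale. When the replicate number of the labels was added to the limma fit as a block, 0 of 8 genes passed on either scale.

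These differences rest on few libraries. Without knockout MZB library 2, 0 of 8 genes were called per cell (Klf2 0.995, limma adjusted p = 0.174; Bcl6 1.08, limma adjusted p = 0.0768), and 0 of 8 without wild-type FoB library 1 (Klf2 1.05, limma adjusted p = 0.128). The per-cell call of Bach2 was also lost without wild-type MZB library 1 or 3 or knockout FoB library 3 (limma adjusted p = 0.0517, 0.106 and 0.0514). After rescaling, 0 of 8 were called without knockout MZB library 2, wild-type MZB library 1, or either wild-type FoB library (Klf2 0.71 to 0.84). The rescaled call of Bcl6 held only without knockout FoB library 2 or 3, and was lost without each of the other 8 libraries (limma adjusted p 0.0515 to 0.2).

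**Figure D4:**
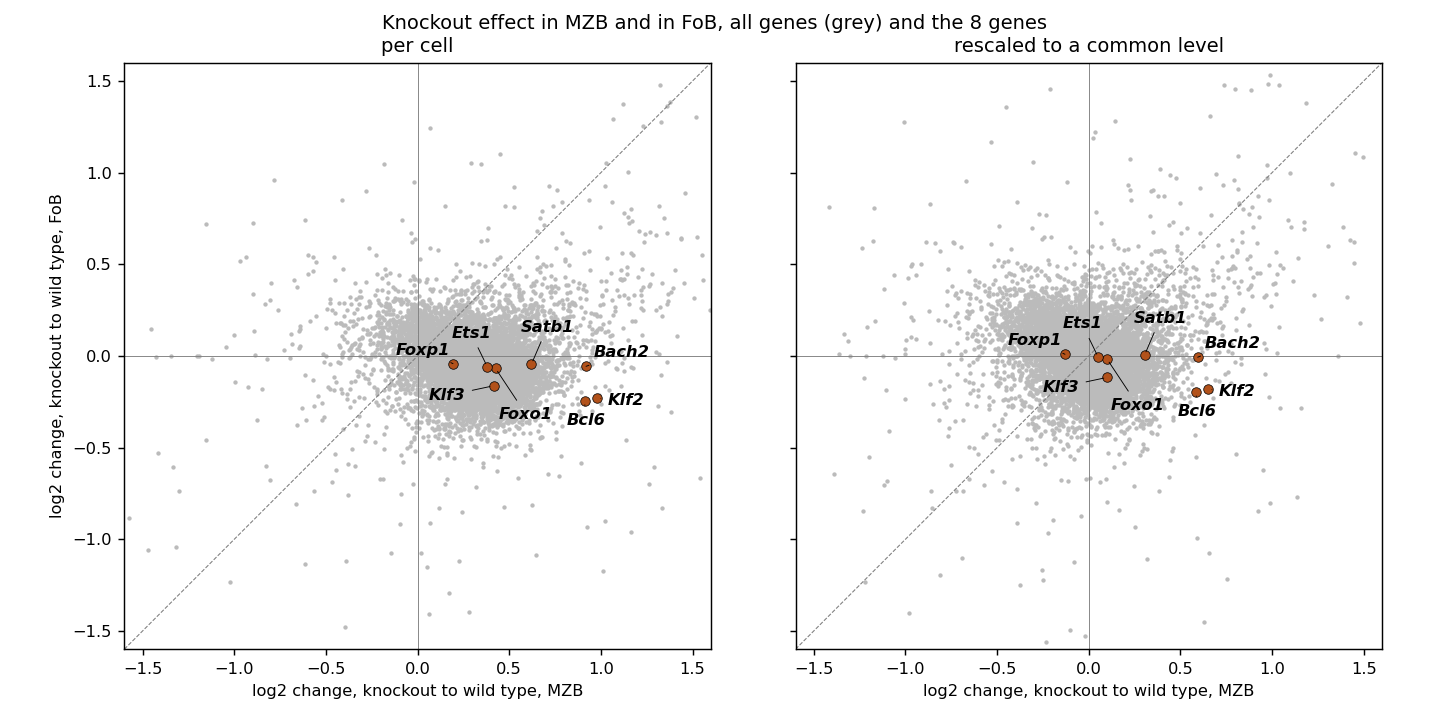
log2 change from wild type to knockout in MZB (x axis) and in FoB (y axis) of all 9690 genes (grey) and of the 8 genes (brown), per cell on the left and rescaled on the right, where the dashed line marks equal effects and axes end at 1.6, leaving out 32 and 25 genes. Klf2, Bcl6 and Bach2 lie to the right, at 0.98, 0.91 and 0.92 in MZB per cell, and at −0.23, −0.25 and −0.06 in FoB.

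The rise in knockout MZB did not bring Klf2, Bach2 and Bcl6 to FoB levels. In knockout MZB compared with knockout FoB, Klf2 stood at −1.31 ± 0.20 on the log2 scale (SE, limma adjusted p = 1.04e-08), Bach2 at −0.82 ± 0.19 (SE, limma adjusted p = 5.42e-05) and Bcl6 at −0.41 ± 0.19 (SE, limma adjusted p = 0.0358). Per cell, these 3 of 8 genes were called lower, against 0.444% of all genes, and Foxo1, Foxp1 and Ets1 were called higher, as were 97.3% of all genes. For Satb1, which had also risen per cell in knockout MZB, no per-cell gap from knockout FoB was shown. It differed by −0.14 ± 0.19 (SE, limma adjusted p = 0.457), with a 95% interval from −0.52 to 0.23. After rescaling 8 of 8 were called lower, against 17.0% of all genes, and limma voom also called 8 of 8, against 18.6%. The rescaled log2 differences ran from −2.54 ± 0.08 for Klf2 (SE) to −0.46 ± 0.09 for Foxp1. The per-cell call of Bcl6 was lost without knockout MZB library 1 or 2, wild-type MZB library 3 or knockout FoB library 2 (limma adjusted p 0.0512 to 0.198), and that of Ets1 without knockout MZB library 2 (limma adjusted p = 0.16).

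Ratios of genes within a library do not depend on the scale of that library. The 5 ratios were chosen after the values had been seen, so they are given as a description, with no test. The ratio of Klf2 to Klf3 was 5.77 and 5.52 in wild-type FoB, 5.62, 6.13 and 4.6 in knockout FoB, 1.07, 1.11 and 1.1 in wild-type MZB, and 1.55 and 1.75 in knockout MZB. Every FoB library lay above every MZB library, and both knockout MZB libraries lay above the 3 wild-type ones. Bach2 was set against Bach1, a widely expressed relative that binds the same sites. Its ratio to Bach1 was 6.50 and 6.59 in wild-type FoB, 7.91, 5.46 and 5.83 in knockout FoB, 1.15, 1.17 and 0.828 in wild-type MZB, and 2.06 and 1.77 in knockout MZB. Irf4 encodes a factor that drives plasma cell differentiation and that BCL6 represses in germinal centres. Bcl6 to Irf4 was 1 and 0.95 in wild-type FoB, 0.783, 0.944 and 0.940 in knockout FoB, 0.124, 0.121 and 0.116 in wild-type MZB, and 0.207 and 0.217 in knockout MZB. For the ratios of Bach2 to Bach1, Bach2 to Irf4 and Bcl6 to Irf4 the cell types did not overlap either. Between the wild-type cell types, Irf4 and Bach1 were themselves called higher per cell in MZB. Irf4 had the smallest p of the BACH2 partners and repressed genes there. The separation of these ratios thus also carries the levels of the denominators, and is not a measure of Bach2 or Bcl6 alone. Foxo1 to Foxp1 lay closer together, from 0.828 to 0.892 in wild-type MZB, 0.991 and 1.04 in knockout MZB, and 0.996 to 1.16 over the 5 FoB libraries, where the cell types overlapped. For all 5 ratios both knockout MZB libraries lay above the wild-type MZB libraries. The numerators other than Foxo1 were Klf2, Bach2 and Bcl6, already called higher in knockout MZB on both scales, so this count adds no support. The share of all gene pairs with such a separation was not computed. The FoB genotypes overlapped for each ratio other than Bcl6 to Irf4, where the knockout libraries lay below the wild-type ones.

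**Figure D5:**
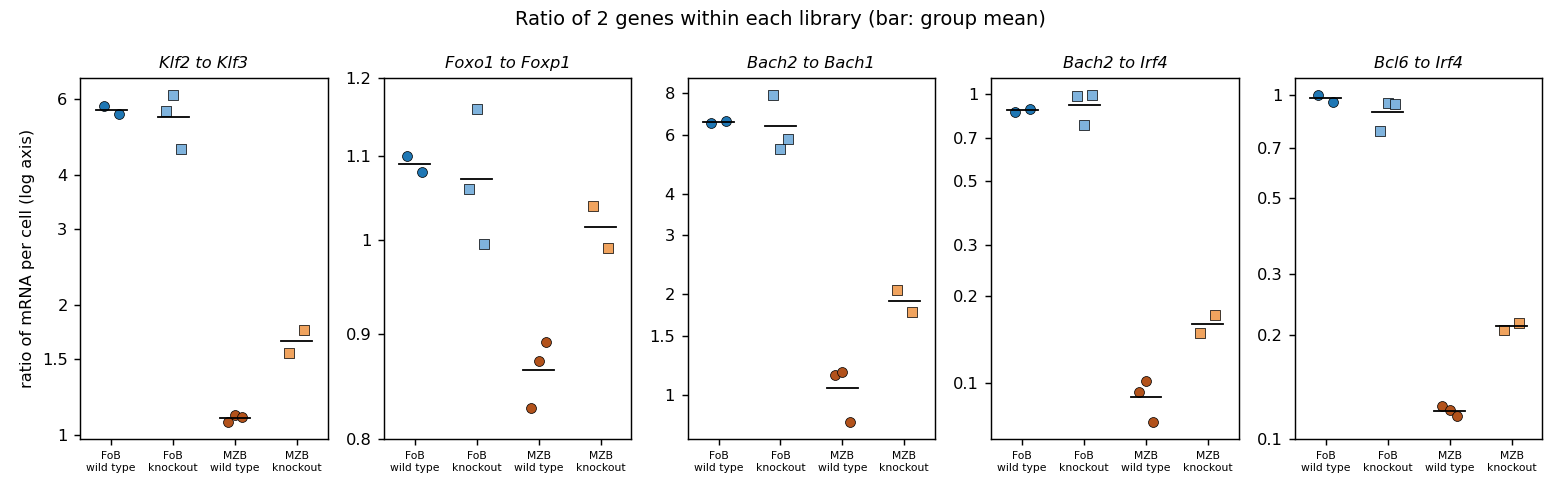
Ratio of the mRNA per cell of 2 genes within each library (y axis, log scale, a separate range per panel) in the 4 groups, where bars give group means. In each panel the knockout MZB libraries lie above the wild-type MZB libraries, as for Klf2 to Klf3 at 1.55 and 1.75 against 1.07 to 1.11.

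Genes of the pathways around the 8 factors were taken from fixed lists, without the 8 genes themselves, and each count is to be read against the share of all genes called. Of 7 KLF2 target genes in the table, 2 rose per cell in knockout MZB, where 13.3% of all genes rose. They were Itgb7, the integrin chain of gut homing, from 4.74 ± 0.996 to 17.5 ± 3.45 mRNA per cell (log2 1.82 ± 0.20, SE, limma adjusted p = 1.16e-11), and Cd44, an adhesion receptor, from 6.11 ± 0.864 to 9.24 ± 1.19 (limma adjusted p = 0.0316). After rescaling, where 3.36% of all genes rose and 1.90% fell, Itgb7 rose and S1pr1, the receptor for exit from lymphoid tissue, fell (log2 −0.47 ± 0.07, SE, limma adjusted p = 0.0043). The list does not share 1 direction between the cell types. Between MZB and FoB of the wild type, 3 of 7 stood lower and 2 higher in MZB after rescaling, against 24.9% and 25.0% of all genes. There S1pr1, which KLF2 induces in T cells, was higher, at 83.5 ± 12.4 in MZB and 18.3 ± 4.28 in FoB per cell (rescaled log2 1.30 ± 0.07, SE, limma adjusted p = 1.07e-07). Of 5 other KLF genes, Klf7 (1.77 ± 0.290 to 2.85 ± 0.128, limma adjusted p = 0.0204) and Klf16 (1.76 ± 0.184 to 2.70 ± 0.170, limma adjusted p = 0.0405) rose per cell in knockout MZB, and 0 of 5 changed after rescaling or in FoB.

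Of 12 FOXO1 target genes, 3 rose per cell in knockout MZB (13.3% of all genes), and after rescaling 1 rose and 1 fell, S1pr1 (3.36% and 1.90% of all genes). Cxcr4, the receptor for CXCL12, went from 4.40 ± 0.223 to 12.6 ± 3.31 (log2 1.44 ± 0.20, SE, limma adjusted p = 4.52e-08, and 1.101 ± 0.16 rescaled, SE, limma adjusted p = 0.00379). Irs2, an insulin receptor substrate, and Ccr7, the receptor that leads cells to T cell zones, rose per cell (limma adjusted p = 0.0083 and 0.0191) and did not pass after rescaling (limma adjusted p = 0.124 and 0.0985). Of the 23 genes of the PI3K and FOXO axis, 5 rose per cell and 3 after rescaling, against 13.3% and 3.36% of all genes. These 3 were Sgk1, a kinase downstream of PI3K (0.0785 ± 0.00623 to 0.366 ± 0.0394), Pik3cg, a catalytic subunit (4.88 ± 0.917 to 8.40 ± 1.27), and Pik3ip1, an inhibitor of PI3K (3.22 ± 0.591 to 5.21 ± 0.255). Their rescaled limma adjusted p values were 0.0295, 0.0188 and 0.036. The other 2 per cell were Pik3ap1 and Foxo4. Between the wild-type cell types, 18 of the 23 stood lower and 0 higher in MZB after rescaling, where 24.9% of all genes stood lower, and per cell 11 stood higher and 1 lower, Sgk1, against 84.2% and 1.67% of all genes. Of 10 other FOX genes, Foxm1, a factor of mitotic gene expression, and Foxo4, a relative of Foxo1, rose per cell in knockout MZB (limma adjusted p = 0.0152 and 0.0433), and 0 of 10 passed after rescaling.

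The shares of all genes that rose in knockout MZB, 13.3% per cell and 3.36% after rescaling, also stand against the next lists. Of 14 other ETS genes, limma called 0 in knockout MZB on either scale, among them Spi1, which encodes PU.1 (10.5 ± 1.70 to 15.4 ± 2.50, limma adjusted p = 0.054), and Spib (74.0 ± 9.96 to 109.1 ± 18.6, limma adjusted p = 0.0671). Of 8 BACH2 partners and repressed genes, 3 rose per cell and 0 after rescaling. The 3 were Hmox1, a heme oxygenase (limma adjusted p = 0.0326), Mafk, a small MAF partner (limma adjusted p = 0.0417), and Nfe2l2, an oxidative stress factor (limma adjusted p = 0.0473). Of 21 BCL6 partners and repressed genes, 4 rose per cell, while 0 rose and 2 fell after rescaling, S1pr1 and Tbl1xr1, where 1.90% of all genes fell. The 4 were Ccnd2, a D-type cyclin (10.6 ± 2.82 to 18.4 ± 4.88, limma adjusted p = 0.00399), the deacetylases Hdac7 and Hdac5 (limma adjusted p = 0.0346 and 0.0436), and Cd69, an early activation antigen (limma adjusted p = 0.0422). Prdm1, the target that BACH2 and BCL6 share, was not analysed here. Of 9 SATB1 relatives and nuclear matrix partners, Parp1 rose per cell (19.6 ± 3.64 to 30.6 ± 6.40, limma adjusted p = 0.0306) and 0 passed after rescaling.

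Of 18 quiescence genes, 6 rose per cell in knockout MZB, against 13.3% of all genes. After rescaling 2 rose, against 3.36% of all genes, and 1 fell, against 1.90%, Rb1 (log2 −0.46 ± 0.11, SE, limma adjusted p = 0.0344). The cell cycle inhibitors Cdkn2d (1.55 ± 0.435 to 3.06 ± 0.575) and Cdkn2c (1.36 ± 0.283 to 2.66 ± 0.660) rose on both scales (rescaled limma adjusted p = 0.0345 and 0.036). Txnip, an inhibitor of glucose uptake (34.1 ± 3.11 to 52.4 ± 7.55), and Slfn2, a Schlafen gene of lymphocyte quiescence, rose per cell and did not pass after rescaling (limma adjusted p = 0.0534 and 0.167). Between the wild-type cell types 10 of the 18 stood lower and 3 higher in MZB after rescaling, against 24.9% and 25.0% of all genes. Cdkn2d was among the lower genes, as the 8 factors were (rescaled log2 −1.80 ± 0.13, SE, limma adjusted p = 8.5e-07), and Txnip too (−0.60 ± 0.08, SE, limma adjusted p = 7.12e-05). Rb1 and Pdcd4, which restrain the cell cycle and translation, were among the higher ones (rescaled log2 0.90 ± 0.10 and 0.91 ± 0.07, SE). In knockout against wild-type FoB, limma called 0 genes of these 10 lists on either scale, against 0.712% of all genes per cell and 0.588% after rescaling.

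Of 6 follicular B cell markers, 3 rose per cell and 2 after rescaling in knockout MZB (13.3% and 3.36% of all genes), the latter Itgb7 and Fcer2a, although CD23, the product of Fcer2a, was sorted against in MZB. Fcer2a rose from 13.3 ± 3.84 to 33.7 ± 1.76 (rescaled log2 1.02 ± 0.14, SE, limma adjusted p = 0.00319). Of 12 marginal zone markers, 0 passed per cell in knockout MZB and 4 fell after rescaling (1.90% of all genes), which were Cr2, S1pr1, S1pr3 and Marcks, a protein kinase C substrate (rescaled log2 −0.77 ± 0.12, SE, limma adjusted p = 0.00484), and their summed level was 836.2 to 909.4 in knockout and 699.5 to 893.5 in wild-type MZB. Of the macrophage and monocyte markers, 3 of 8 were in the table (Itgam, Ly6c2 and Cd68, of which the first pair rose in knockout MZB on both scales), with a sum of 7.60 to 10.4 in knockout and 2.65 to 4.43 in wild-type MZB, and 3.54 to 4.11 in knockout and 1.12 to 1.92 in wild-type FoB. Of the T cell markers 2 of 9 were in the table (Lck, which rose on both scales, and Cd2), with a sum of 41.6 to 42.9 in knockout and 24.8 to 37.1 in wild-type MZB. Of the dendritic cell markers 1 of 7 was (Flt3, which rose on both scales), at 1.92 to 2.33 in knockout and 0.261 to 0.441 in wild-type MZB, and of the plasma cell markers 1 of 5 (Xbp1), at 13.8 to 18.5 and 9.59 to 13.4. In FoB, where none of the 8 genes passed, Flt3 also rose on both scales (0.376 to 0.512 in knockout against 0.0892 to 0.0945 in wild type, log2 0.88 per cell and 1.08 rescaled, limma adjusted p = 0.00273 and 0.00199). Ly6c2 rose there on both scales and Itgam after rescaling, where 0.413% of all genes rose per cell and 0.454% rescaled. Itgam encodes CD11b, which was sorted against in MZB and FoB alike. The defining markers Cd3e, Csf1r and Adgre1 and all 6 NK cell and 4 erythroid markers were not analysed here, and the part of these moves in the results on the 8 genes was not tested.

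Genes whose rescaled log2 levels ran most closely with each factor over the 10 libraries are given as a description, since all 10 points fall into 2 cell types. Klf2 ran with Bahd1, Tcp11l2 and Pde2a, each with r = 0.998. Pde2a, a cyclic nucleotide phosphodiesterase, stood at 6.95 mRNA per cell in wild-type FoB, 0.936 in wild-type MZB and 1.91 in knockout MZB. Tcp11l2 was also the nearest gene to Bcl6 (r = 0.997), followed by Il21r, the interleukin 21 receptor, and Map4k4 (r = 0.996 each). Fam107b was the nearest gene to both Bach2 (r = 0.997) and Satb1 (r = 0.998), and Bach2 and Satb1 themselves had r = 0.997. Klf3 ran with Ets1, Zbtb7a and Dyrk1a (r = 0.988 each), and Ets1 with Ago2, Add3 and Ints4 (r = 0.997, 0.997 and 0.996). Foxo1 ran with Elf2, Trib2 and St6gal1 (r = 0.996, 0.995 and 0.995). Foxp1 stood apart from the others. Its r with the other 7 genes was 0.848 to 0.920, against 0.972 to 0.997 among those 7, and its nearest genes were Wdr26, Sp1 and Sdad1 (r = 0.988, 0.976 and 0.975).

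The genes lie on 8 chromosomes of mm10, by the RefSeq annotation of GRCm38.p6. Klf2 (Entrez 16598) lies on chromosome 8 from 72319062 to 72321654, Klf3 (Entrez 16599) on chromosome 5 from 64803521 to 64832901, Foxo1 (Entrez 56458) on chromosome 3 from 52268337 to 52350109, and Foxp1 (Entrez 108655) on chromosome 6 from 98925342 to 99522746. Bach2 (Entrez 12014) lies on chromosome 4 from 32238413 to 32586109, Ets1 (Entrez 23871) on chromosome 9 from 32636241 to 32757820, Satb1 (Entrez 20230) on chromosome 17 from 51736187 to 51833290, and Bcl6 (Entrez 12053) on chromosome 16 from 23965050 to 23988866. Klf3, Foxp1, Bach2 and Bcl6 overlap other annotated genes, such as Bach2os, the antisense RNA of Bach2. None of those is a row of the table, and the sources used here do not say whether reads were counted by strand, so reads of the overlaps are uncertain.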

How the data were processed

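RNA was sequenced from sorted MZB and FoB in 10 libraries, made with a stranded poly(A) kit, per the labels' protocols. The deposited signal is mRNA per cell for each gene, per the file headers, and reads were aligned with STAR to mm10, per the submitters' processing notes. The counter, the annotation, the gene filter and the conversion to molecules per cell were not stated in any of the sources used. Of 9690 Entrez identifiers, 9681 were matched to RefSeq symbols. Values were whole multiples of a step per gene and library, so whole reads were recovered for 100% of genes (largest deviation 8.7e-06 reads, tolerance 0.1). Steps fell with exon length (Spearman rho −0.862 over 9537 genes, which are not replicates), and 82.1% of genes lay within 1.5-fold of a constant step times length, so levels compare between most genes about per length. Foxo1 and Satb1 lay outside that range. No 2 libraries were identical.

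Limma 3.58.1 in R 4.3.3 (lmFit, contrasts, eBayes with trend) was fitted to log2(value + 0.3) of all 10 libraries with 1 coefficient per group, two-sided, with Benjamini-Hochberg adjustment across the whole table (threshold 0.05). A floor of 0.3 mRNA per cell in at least 2 libraries removed 0 genes. Fold changes on this scale understate the change of low genes. The fit treats a shift common to a whole library as independent between genes (prior degrees of freedom 86.9 per cell and 5.0 rescaled), which can make per-cell p-values too small. For rescaled values, each library was divided by a factor from trimmed log-ratios against the average library (trims 0.3 and 0.05; factors 0.625 to 1.761). The recovered reads were tested with limma voom. Alternatives were other pseudocounts and floors, no trend, only the groups compared, a replicate block, and leaving out each library in turn. The per-cell fit was tried on simulated data with a spread set in advance. There it recovered 81% of 2-fold and 8% of 1.5-fold changes in knockout MZB, with 18 false calls, so most changes of 1.5-fold went uncalled. Ratios were computed in Python 3.11.15 and not tested. Labels share replicate numbers without naming a shared animal.

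The named genes are the 8 factors, Kdm1a, Fcer2a and Cr2, and from each list the genes with the smallest p (up to 4 in knockout MZB, up to 3 in the other comparisons), with for each factor the 3 most correlated genes of at least 3 mRNA per cell. The members and lists were chosen with earlier results of these data known, and list counts are descriptions, not tests. Some genes of the lists are not reported here by name or value.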

Additional observations from a re-analysis of the deposited data

Results flagged for a closer look

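Per cell, the test of the difference itself called 3 of the 8 genes with a larger knockout effect in MZB, against 2.02% of all genes. Per cell, the difference was 1.21 on the log2 scale for Klf2 (limma adjusted p = 0.00703), with both knockout libraries above the 3 wild-type ones in MZB (7.63 and 10.39 against 3.48 to 5.28 mRNA per cell) and overlap in FoB. For Bcl6 it was 1.16 (limma adjusted p = 0.00703), where knockout MZB held 5.12 and 5.75 against 2.60 to 3.05 mRNA per cell. For Bach2 it was 0.98 (limma adjusted p = 0.0326), with 3.70 and 4.56 against 1.64 to 2.59 mRNA per cell, and it did not pass after rescaling (0.60, limma adjusted p = 0.137). With the replicate number as a block, 0 of 8 genes passed on either scale, and the calls also depended on single libraries. No group held more than 3 libraries, so single libraries were not tested as outliers.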

How the results depend on the processing

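Pseudocounts of 0.1 and 1, other floors, no trend and a fit of only the groups compared kept the direction and the call of all 8 genes in every comparison they were run for, except that Klf3 passed between the knockout cell types in the last (0.357, limma adjusted p = 0.0394). That fit was not run for the difference between knockout effects, which uses all groups. On rescaled values and by limma voom on recovered reads, the log2 values that changed sign were, in that order, −0.130 and −0.132 (Foxp1, knockout against wild-type MZB), 0.009 and 0.010 (Foxp1, FoB), 0.004 and 0.006 (Satb1, FoB), and −0.139 and −0.141 (Foxp1, difference between knockout effects). Between wild-type MZB and FoB, 8 of 8 were called by both, with Foxo1 at −0.654 and −0.671, Foxp1 at −0.326 and −0.334 and Ets1 at −0.775 and −0.782. Between the knockout cell types Klf3 was at −0.829 and −0.884, Foxo1 at −0.536 and −0.549, Foxp1 at −0.465 and −0.476, and Ets1 at −0.716 and −0.721. On rescaled values these shifts follow from the division by library factors, the one step changed, and by limma voom their cause was not tested. With the replicate number as a block, 0 of 8 passed for the difference between effects on either scale, and in FoB Bach2 was at 0.025 per cell and at 0.049 rescaled, and Foxo1 at 0.005 rescaled. The block also ended the calls of Satb1 per cell (limma adjusted p = 0.106) and Bach2 rescaled (limma adjusted p = 0.104) in MZB and of Bcl6 per cell between the knockout cell types (limma adjusted p = 0.052), and no other call of the 8. Same-numbered libraries deviated together in 3 of 13 pairs (r −0.19 to 0.187, limit 0.1). These were knockout with wild-type MZB libraries 1 (0.187) and 2 (0.149), and knockout MZB with knockout FoB libraries 1 (0.117). Differently numbered libraries were not compared, so this check cannot decide whether the numbers pair the libraries.

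Leaving out each library in turn gave 1 to 6 called members per cell and 1 to 3 rescaled in knockout against wild-type MZB, 0 to 3 and 0 to 2 for the difference between effects, 4 to 5 and 7 to 8 between the wild-type cell types, 4 to 7 and 8 between the knockout cell types, and 0 in FoB. The signs that changed were those of Satb1 between the knockout cell types (−0.291 to 0.006), Ets1 (−0.091 to 0.292) and Foxo1 (−0.012 to 0.427) between the wild-type cell types, and in FoB per cell Foxo1 (−0.287 to 0.152), Foxp1 (−0.243 to 0.159), Bach2 (−0.273 to 0.158), Ets1 (−0.25 to 0.133), Satb1 (−0.215 to 0.125) and Bcl6 (−0.52 to 0.025). Rescaled, these were Foxp1 (−0.037 to 0.084, with −0.022 and −0.033 without knockout FoB library 1 and wild-type FoB library 2), Bach2 (−0.097 to 0.116), Satb1 (−0.052 to 0.05, with −0.010 without wild-type FoB library 2), Foxo1 (−0.078 to 0.041, with 0.002 without knockout FoB library 2) and Ets1 (−0.036 to 0.031, with 0.019 without wild-type FoB library 1), and Bach2 was at 0.049 without the last library. Over all genes, knockout against wild-type MZB gave 1356 calls per cell, 510 rescaled, 2078 with a pseudocount of 1, 828 with a floor of 3, 528 with the block and 269 to 2791 without 1 library. FoB gave 69 calls, 128 with only its groups and 105 by limma voom. The wild-type cell types gave 8323, 4838 rescaled and 5041 by limma voom, and the knockout cell types 9469, 3412 and 3677. The difference between effects gave 227, 30 rescaled, 134 and 421 with pseudocounts of 0.1 and 1, 121 with a floor of 3, 110 with the block and 595 by limma voom. Rescaled values with the block gave 265 calls in MZB, 37 in FoB and 4 for the difference. A lone library left in a group is assumed to vary like the other groups. Klf2, Bcl6 and Bach2 held 162 to 567 reads per wild-type MZB library, which sets the counting error there. The cause of the calls lost with the block or without a library was not tested.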
